A study of Mus musculus with 6 samples.

Results

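The genes described here encode subunits of voltage-gated sodium and calcium channels and of the hyperpolarisation-activated, cyclic nucleotide-gated (HCN) channels. Members were all probe sets whose single platform gene symbol names a numbered Scn a or b gene, a Cacna, Cacnb or Cacng gene, or an Hcn gene, leaving out Cacng2, Cacng3 and Cacng8. This gave 81 of the 45101 probe sets on the array, for 34 genes. A group mean intensity of 50 in at least 1 group was reached by 51 of these probe sets, which left 27 genes tested and 7 not tested.

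The 6 arrays came from cortex of mice of the bacterial artificial chromosome line ES691, in which S100a10 is the driver, backcrossed for 3 to 5 generations from FVB onto C57BL/6 and given no treatment; no age is stated. The TRAP group (n = 3) held RNA from translating ribosome affinity purification, in which tagged ribosomes of the cells with an active driver are precipitated with the mRNA they carry. The unbound group (n = 3) held whole cortex RNA of the same line, named input in the sample titles and flow-through in the series text, so the controls carry the transgene too. Per the series text the S100a10 driver also labels cells that are not neurons, and the published list of probe sets recommended there was not used here.

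The pore of a sodium or calcium channel is formed by a large alpha subunit, and smaller auxiliary subunits set how much channel reaches the membrane and how it opens and closes. Sodium channels carry the rising phase of the action potential, calcium channels couple depolarisation to transmitter release, dendritic signalling and gene expression, and HCN channels pass an inward current when a cell is hyperpolarised. In cortical pyramidal neurons these channels lie in distinct compartments, such as the axon initial segment, the terminals and the apical dendrite.

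S100a10 itself was 5.86-fold higher in TRAP RNA (limma adjusted p = 8.3e-05). Over all 12070 genes tested the median log2 fold change, TRAP minus unbound, was -0.21. Of 8 tested markers of pyramidal neurons 2 were higher and 4 lower, while 7 of 7 tested markers of meningeal fibroblasts were higher. Exactly repeated values within a group were held by 53.6% of all probe sets tested and by 20 of the 51 members, and they shrink the spread on which a test rests. Replicates are labelled biological, but how many animals stood behind each is not stated; the p-values cover only the variation among these 6 arrays, part of which may be technical. The TRAP group held ribosome-bound RNA of tagged cells and the unbound group whole cortex RNA. Fewer cells of a type, less RNA per cell and less RNA on ribosomes therefore cannot be told apart.

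Most channel subunit genes were lower in TRAP RNA. Each of the 9 subunit classes held at least 1 gene called lower. Classes of 2 to 5 tested genes are too small to set apart from the 45.7% of all genes called lower. With each array centred on the median of all probe sets, no pore gene of P/Q-, N- or R-type channels and no HCN gene was called lower. Of the 27 tested genes 21 were called lower and 1 higher at a limma adjusted p below 0.05, where 45.7% of all genes tested were called lower and 23.3% higher. The members' median log2 fold change was -0.87 beside -0.21 for all genes, and 22 of the 27 lay below the all-gene median. On 22 genes the 3 TRAP arrays were all below the 3 unbound arrays, an arrangement that 49.6% of all genes showed. A call with at least a 2-fold decrease was made for 9 members (13.3% of all genes), and a call with at least a 2-fold increase for 1, Scn7a (7.29% of all genes). Tested against a 2-fold change in place of 0, 5 members were lower (6.56% of all genes). Of the 27 genes 2, Cacna2d4 and Cacng5, passed the minimum of 50 only through the unbound group, where they are high, and both are among the 9 and the 5. With a mean of 50 or more required in both groups, 19 members were lower (44.7% of all genes), 7 at least 2-fold lower (11.1%) and 1 higher (21.2%), and 3 of the 5 have both means above it. On probe sets without repeated values 13 members were lower (39.2% of all genes), 5 at least 2-fold lower (12.6%) and 0 higher by limma (19.7%; 0 also at an unadjusted p under 0.05). Only 17 of the 27 genes could be tested in that way, and Scn7a was not among them.

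The array medians over all probe sets were 31.4 to 31.8 on the TRAP arrays and 42.4 to 43.1 on the unbound arrays. The counts were also taken relative to this shift of the whole array. Quantile normalisation of the 6 arrays left 19 members lower and 1 higher, where 3983 of the 12070 genes were lower and 4113 higher. After each array was centred on the median of the tested genes, an alternative added after the data were seen, 19 members were lower and 1 higher, where 33.2% of all genes were lower and 34.0% higher. The calls of Cacna1a and Hcn3 were lost by that centring. Centring on the median of all probe sets, which raised the all-gene median to 0.23, left 14 lower and 3 higher, where 22.3% of all genes were lower and 47.3% higher; 7 members were at least 2-fold lower (6.34% of all genes). With the replicate number as a block, 21 members were again lower (48.0% of all genes), with Cacna1a lost and Cacna2d3 gained.

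**Figure D1:**
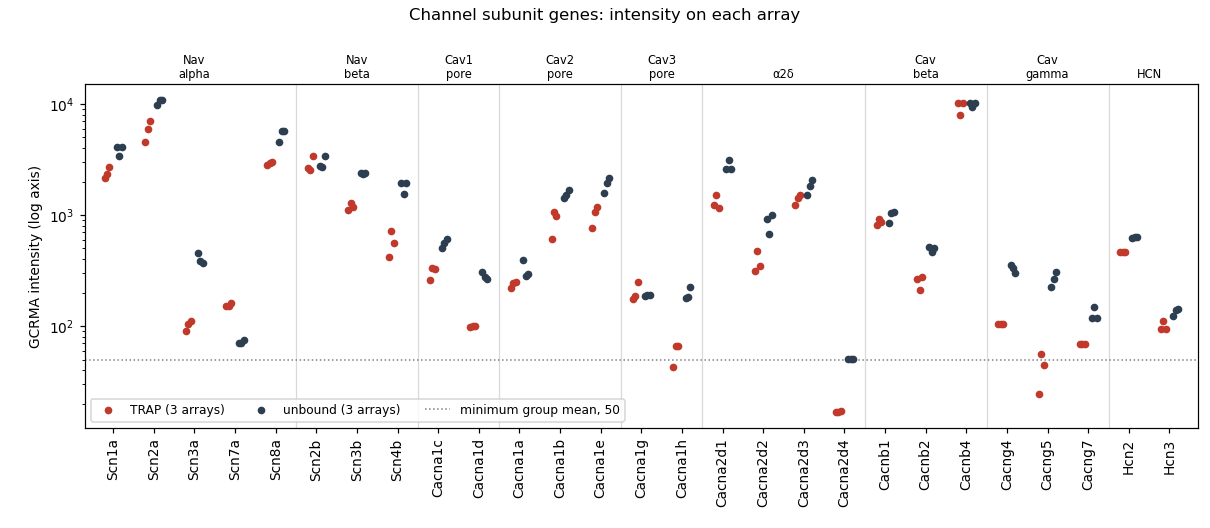
GCRMA intensity on a log axis for the probe set that represents each of the 27 tested genes, with 1 point per array for the 3 TRAP and the 3 unbound samples and the genes grouped by subunit class. The groups overlap for Scn2b, Cacna1g, Cacnb1 and Cacnb4, the TRAP points are above the unbound points for Scn7a, and they are below for the other 22 genes; levels of different probe sets are not comparable.

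Among the sodium channel alpha subunits, 4 of 5 tested genes were lower and Scn7a was higher. Scn3a, known as the alpha subunit of the embryonic brain, measured 89.6, 104 and 111 on the TRAP arrays and 458, 383 and 368 on the unbound arrays. The groups were far apart, with the highest TRAP array at 111 and the lowest unbound array at 368. The fall was 3.97-fold (log2 -1.99, SE 0.12, limma adjusted p = 1.0e-04), or a log2 fold change of -1.78 after centring on the tested genes, and it held against a 2-fold change (adjusted p = 0.0031).

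The alpha subunits that carry most sodium current in the adult cortex were lower by smaller amounts. Scn2a, found in the axons of pyramidal neurons, gave 4499.8, 5933 and 6987 in TRAP RNA and 9684, 10781 and 10811 in unbound RNA, a 1.82-fold decrease (log2 -0.87, SE 0.17, limma adjusted p = 0.0078). Scn8a, the alpha subunit of mature initial segments and nodes of Ranvier, gave 2789, 2954 and 2997 against 4559, 5714 and 5675, a 1.82-fold decrease (log2 -0.86, SE 0.10, limma adjusted p = 0.0012). These 2 genes thus fell by almost the same factor. Scn1a, whose protein is prominent in fast-spiking interneurons, gave 2148, 2317 and 2689.6 against 4051, 3405 and 4128, a 1.62-fold decrease (log2 -0.70, SE 0.12, limma adjusted p = 0.0043). The groups did not overlap for any of the 3 genes. After centring on the tested genes the log2 fold changes of Scn2a, Scn8a and Scn1a were -0.65, -0.65 and -0.49, each still called; centring on all probe sets ended the calls of Scn2a (adjusted p = 0.061) and Scn1a (adjusted p = 0.081).

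Scn7a, which encodes a channel that senses extracellular sodium rather than voltage and is known from glia and from cells outside the brain, was the only tested member called higher. It measured 151, 151 and 162 on the TRAP arrays and 70.4, 70.4 and 75.7 on the unbound arrays. The values were low and partly repeated, and the TRAP arrays stood above all unbound arrays. The increase was 2.14-fold (log2 1.10, SE 0.05, limma adjusted p = 3.7e-05), but it did not pass against a 2-fold change (adjusted p = 0.36). A second probe set rose from 32.4 on each unbound array to between 51.9 and 58.9 on the TRAP arrays (limma adjusted p = 1.9e-04 over all probe sets). It passed the minimum only through the TRAP group and was 1.09-fold higher with values under 50 raised to 50, and the remaining probe set stayed under 50. The 7 tested meningeal markers were higher on the same arrays, with summed intensities of 16091 to 20411 in TRAP RNA against 580 to 736 in unbound RNA, and their part in the Scn7a result was not tested.

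Scn7a lies in the sodium channel cluster of chromosome 2, with only Scn9a between it and Scn1a among the protein-coding genes of RefSeq, so neighbours of 1 cluster went opposite ways. Scn3a and Scn2a adjoin each other in that cluster and were both lower, and Scn9a was under 50 in both groups. The 250 bases before the RefSeq starts of Scn1a and Scn7a (build GRCm38.p6) are shown because these genes are close neighbours that moved apart, with each CpG dinucleotide in capitals. The Scn1a sequence is chr2:66440838-66441087 on the minus strand and the Scn7a sequence chr2:66784911-66785160 on the minus strand.
Scn1a: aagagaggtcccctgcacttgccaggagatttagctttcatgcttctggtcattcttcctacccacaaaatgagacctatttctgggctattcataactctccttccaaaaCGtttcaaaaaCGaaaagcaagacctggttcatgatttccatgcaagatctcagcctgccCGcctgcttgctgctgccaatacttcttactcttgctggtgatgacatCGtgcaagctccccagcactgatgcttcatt
Scn7a: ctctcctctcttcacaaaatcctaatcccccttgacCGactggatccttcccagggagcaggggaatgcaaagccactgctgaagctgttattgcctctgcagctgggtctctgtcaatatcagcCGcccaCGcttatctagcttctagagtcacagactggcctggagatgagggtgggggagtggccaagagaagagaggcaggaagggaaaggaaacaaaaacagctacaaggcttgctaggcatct
They hold 4 and 3 CpG dinucleotides, both below the median of 6 over all promoters in the table.

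Among the auxiliary beta subunits of sodium channels, which are adhesion-like proteins that modulate gating, 2 of 3 genes were lower. Scn4b, associated with the resurgent current of fast-firing neurons, gave 421, 725 and 566 in TRAP RNA and 1926, 1544 and 1949.6 in unbound RNA. The highest TRAP array was at 725 and the lowest unbound array at 1544. The decrease was 3.23-fold (log2 -1.69, SE 0.22, limma adjusted p = 0.0017; -1.48 after centring). Scn3b gave 1106, 1277 and 1180.3 against 2364, 2325 and 2364, a 1.98-fold decrease (log2 -0.99, SE 0.06, limma adjusted p = 9.6e-05). Its small spread rests in part on an exactly repeated unbound value.

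Scn2b did not follow. Its intensities were 2635, 2527 and 3361 in TRAP RNA and 2765, 2717 and 3382 in unbound RNA, with overlapping groups and the highest value in replicate 3 of either group. The log2 fold change was -0.06 (95% confidence interval -0.44 to 0.32, limma adjusted p = 0.73), and its sign turned positive after centring on the tested genes (0.15). The other 2 tested probe sets of Scn2b were not called either, with log2 fold changes of -0.12 and 0.0071.

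Scn2b and Scn4b adjoin each other on chromosome 9, so the subunit with no call and the one with the larger fall are direct neighbours. Their 250 bases before the RefSeq start (GRCm38.p6) are shown for that reason, with CpG dinucleotides in capitals. The Scn2b sequence is chr9:45117626-45117875 and the Scn4b sequence chr9:45138374-45138623, both on the plus strand.
Scn2b: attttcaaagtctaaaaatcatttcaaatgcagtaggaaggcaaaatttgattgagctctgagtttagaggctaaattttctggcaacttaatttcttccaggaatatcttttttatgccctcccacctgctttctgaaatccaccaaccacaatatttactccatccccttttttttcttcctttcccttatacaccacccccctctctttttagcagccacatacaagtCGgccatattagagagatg
Scn4b: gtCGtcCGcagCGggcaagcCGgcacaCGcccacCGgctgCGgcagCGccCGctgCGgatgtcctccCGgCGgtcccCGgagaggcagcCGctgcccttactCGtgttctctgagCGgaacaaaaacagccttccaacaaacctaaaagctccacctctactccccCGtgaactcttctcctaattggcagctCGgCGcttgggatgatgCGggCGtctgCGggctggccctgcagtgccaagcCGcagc
Scn2b holds 1 CpG and Scn4b 23, where the median of all 32851 promoters in the table was 6.

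**Figure D2:**
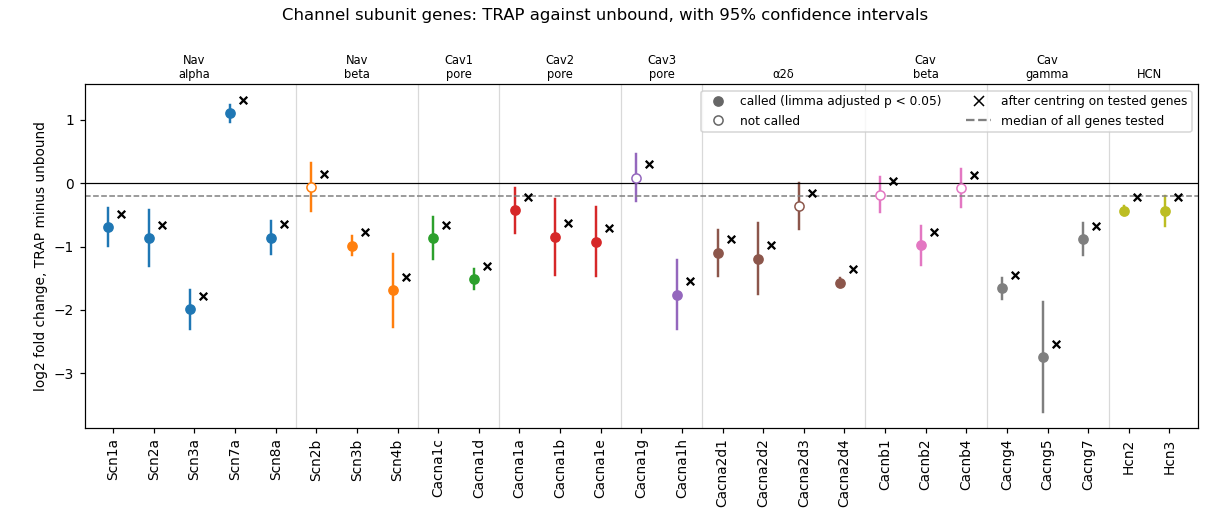
Log2 fold change, TRAP minus unbound, of the 27 tested channel genes with 95% confidence intervals; filled points are called at a limma adjusted p under 0.05, open points are not, and crosses give the value after centring on the tested genes. The points run from -2.74 for Cacng5 to 1.10 for Scn7a, and the dashed line marks the all-gene median of -0.21.

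The pore-forming subunits of L-type calcium channels that were tested, 2 of 4 genes, were both lower. Cacna1d, whose channels open at comparatively negative voltages, measured 98.0, 99.5 and 99.5 on the TRAP arrays and 307, 276 and 266 on the unbound arrays, 2.86-fold lower (log2 -1.51, SE 0.06, limma adjusted p = 2.5e-05). The TRAP values were nearly identical, partly by repetition, and the call held against a 2-fold change (adjusted p = 0.0026). Cacna1c, the main L-type pore of brain and of smooth muscle, gave 259, 331 and 327 against 500.2, 562 and 609, 1.83-fold lower (log2 -0.87, SE 0.13, limma adjusted p = 0.0026), and a second probe set was 1.34-fold lower. Of 6 smooth muscle and pericyte markers 5 were higher on these arrays, while Rgs5 was 4.66-fold lower. Their part in the Cacna1c result was not tested.

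The 3 pore genes of presynaptic P/Q-, N- and R-type channels were all lower, by factors under 2. Cacna1e (R-type) gave 760.1, 1068 and 1182 in TRAP RNA and 1563, 1957 and 2155 in unbound RNA, 1.90-fold lower (log2 -0.93, SE 0.21, limma adjusted p = 0.013). Cacna1b (N-type) gave 604, 1059 and 972 against 1409, 1516 and 1685, 1.80-fold lower (log2 -0.84, SE 0.23, limma adjusted p = 0.025). Replicate 1 was the lowest TRAP array for both genes. The Cacna1b call was lost without unbound replicate 1, 2 or 3 (adjusted p = 0.055, 0.071 and 0.082), while its other 2 tested probe sets were 1.62-fold and 1.95-fold lower. Centring on all probe sets ended the calls of both genes (adjusted p = 0.16 for Cacna1b and 0.076 for Cacna1e).

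Cacna1a, the P/Q-type pore that triggers transmitter release, depended on the probe set. The representative probe set gave 220.2, 244 and 250.4 in TRAP RNA and 389.7, 285 and 294 in unbound RNA, a 1.34-fold decrease (log2 -0.43, SE 0.14, limma adjusted p = 0.041). Unbound replicate 1 stood above the other unbound arrays. The call was lost with the replicate block (adjusted p = 0.090), centring (adjusted p = 0.16) and quantile normalisation (adjusted p = 0.27). It was also lost when any single TRAP array (adjusted p = 0.12, 0.091 and 0.079 for replicates 1 to 3) or unbound replicate 3 (adjusted p = 0.064) was left out. A less bright probe set fell from between 98.2 and 100.2 on the unbound arrays to between 17.2 and 18.4 on the TRAP arrays (log2 -2.49). Its TRAP values are below the minimum of 50, and with values under 50 raised to 50 the decrease was 1.99-fold. It represents the gene where only unmarked probe sets are used. The remaining tested probe set, at 50.2 to 53.1 against 53.5 to 59.7, was not called.

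The T-type pores, which open near rest and support burst firing, divided. Cacna1h gave 42.7, 66.6 and 66.6 on the TRAP arrays and 178, 183 and 226 on the unbound arrays, a 3.38-fold decrease (log2 -1.76, SE 0.21, limma adjusted p = 0.0013). Cacna1g gave 175, 189 and 252 against 189, 192 and 192, with overlapping groups and a log2 fold change of 0.09 (95% confidence interval -0.29 to 0.46, limma adjusted p = 0.62). TRAP replicate 3 was the highest Cacna1g value, and without it the sign turned (-0.07); centring on all probe sets called it higher (0.52, adjusted p = 0.018). The difference between Cacna1h and Cacna1g was not tested.

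The alpha2delta subunits, extracellular proteins that bring calcium channels to the membrane, were lower for 3 of 4 genes. Among the 3 was Cacna2d4, which passed the minimum of 50 only through the unbound group. Cacna2d1 gave 1234, 1528 and 1147 in TRAP RNA and 2595, 3152 and 2580.1 in unbound RNA, 2.14-fold lower (log2 -1.10, SE 0.14, limma adjusted p = 0.0015). Cacna2d2 gave 311, 472 and 348 against 911, 676 and 991, 2.29-fold lower (log2 -1.19, SE 0.22, limma adjusted p = 0.0058). The proteins of these 2 genes bind gabapentin, and replicate 2 of Cacna2d2 was the highest TRAP and the lowest unbound array.

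Cacna2d4, known from photoreceptors, sat at the limit of measurement. It gave 16.9, 16.9 and 17.3 against 50.3, 50.6 and 50.3 (2.97-fold lower, limma adjusted p = 2.1e-06), but with values under 50 raised to 50 the log2 fold change was -0.01 (adjusted p = 0.59). Cacna2d3 gave 1239, 1435 and 1508 against 1515, 1824 and 2072, a log2 fold change of -0.36 (95% confidence interval -0.73 to -0.0034) that was not called (limma adjusted p = 0.068). It was called with the replicate block (adjusted p = 0.0084), and without unbound replicate 1 (adjusted p = 0.026), the lowest unbound array. Its sign turned after centring on all probe sets (0.07).

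The cytoplasmic beta subunits, which bind the pore and promote its delivery to the membrane, had the median log2 fold change nearest to 0 of the 9 classes (-0.18, or 0.03 after centring). Cacnb2 was the only one of 3 called, at 265, 211 and 277 in TRAP RNA against 512, 461 and 504 in unbound RNA (1.97-fold lower, log2 -0.98, SE 0.12, limma adjusted p = 0.0013), with a second probe set 2.12-fold lower. Cacnb4, mutated in the lethargic mouse, gave 10226, 7864 and 10133 against 10077, 9404 and 10077, with a log2 fold change of -0.08 (95% confidence interval -0.38 to 0.22, limma adjusted p = 0.59). Its groups overlapped, and replicate 2 was the lowest array of both. Another Cacnb4 probe set was called lower, at 5886, 5654 and 5654 against 7657, 7514 and 7269 without overlap (1.31-fold, limma adjusted p = 4.0e-04 over all probe sets). The least bright was not called (log2 0.56, adjusted p = 0.34). The sign turned after centring on the tested genes (0.13) and without TRAP replicate 2 (0.05), and centring on all probe sets called it higher (0.36, adjusted p = 0.029).

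Cacnb1, first known from skeletal muscle, gave 808, 912 and 869.6 against 847, 1033 and 1071 (log2 -0.18, 95% confidence interval -0.46 to 0.09, limma adjusted p = 0.18). It was called lower without unbound replicate 1 (adjusted p = 0.021). Its other tested probe sets were called in opposite directions, which made it the only one of 13 genes with several tested probe sets where that happened. The first fell 2.08-fold, from 234, 320.5 and 305 to 136 on every TRAP array, and the second was 1.27-fold higher at 220.1, 205 and 233 against 182, 160.3 and 174. The direction of Cacnb1 thus differed between its probe sets, and its sign turned after centring on the tested genes (0.0282).

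The gamma subunits held the largest decrease among the members. These are membrane proteins related to stargazin, and those of Cacng4, Cacng5 and Cacng7 also act as auxiliary proteins of AMPA-type glutamate receptors. Cacng5 gave 24.5, 55.7 and 45.0 on the TRAP arrays and 223, 265 and 309.6 on the unbound arrays, a 6.68-fold decrease (log2 -2.74, SE 0.34, limma adjusted p = 0.0013), or 5.09-fold with values under 50 raised to 50. This gene passed the minimum of 50 only through the unbound group, where it is high. Cacng4 gave 104 on each TRAP array and 352, 336 and 299.7 on the unbound arrays, 3.16-fold lower (log2 -1.66, SE 0.07, limma adjusted p = 2.4e-05), while its second probe set, at 39.7 on each TRAP array, passed the minimum only through the unbound group; against a floor of 50 its decrease was 1.24-fold. Cacng5 and Cacng4 held their calls against a 2-fold change (adjusted p = 0.019 and 0.0014), with the same limit for Cacng5. Cacng7 gave 69.3 on all 3 TRAP arrays and 119, 148 and 119 on the unbound arrays, 1.84-fold lower (limma adjusted p = 8.9e-04). Cacng4 and Cacng7 held exactly repeated TRAP values, which shrink the spread behind their p-values. Cacng4 and Cacng5 adjoin each other on chromosome 11, next to Cacng1, which stayed under 50 in both groups.

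The HCN genes analysed, Hcn2 and Hcn3, fell by small factors. Hcn2 gave 467, 469 and 469 on the TRAP arrays and 620.2, 639.8 and 639.8 on the unbound arrays, 1.35-fold lower (log2 -0.44, SE 0.03, limma adjusted p = 1.2e-04). Hcn3 gave 94.8, 111 and 94.8 against 124, 141 and 142, 1.35-fold lower (log2 -0.44, SE 0.09, limma adjusted p = 0.0094). Both genes held exactly repeated values, and the groups did not overlap. After centring on the tested genes the log2 fold changes were -0.22 (adjusted p = 0.015) and -0.23 (adjusted p = 0.086), and after centring on all probe sets they were -0.0029 and -0.0054 with neither called.

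**Figure D3:**
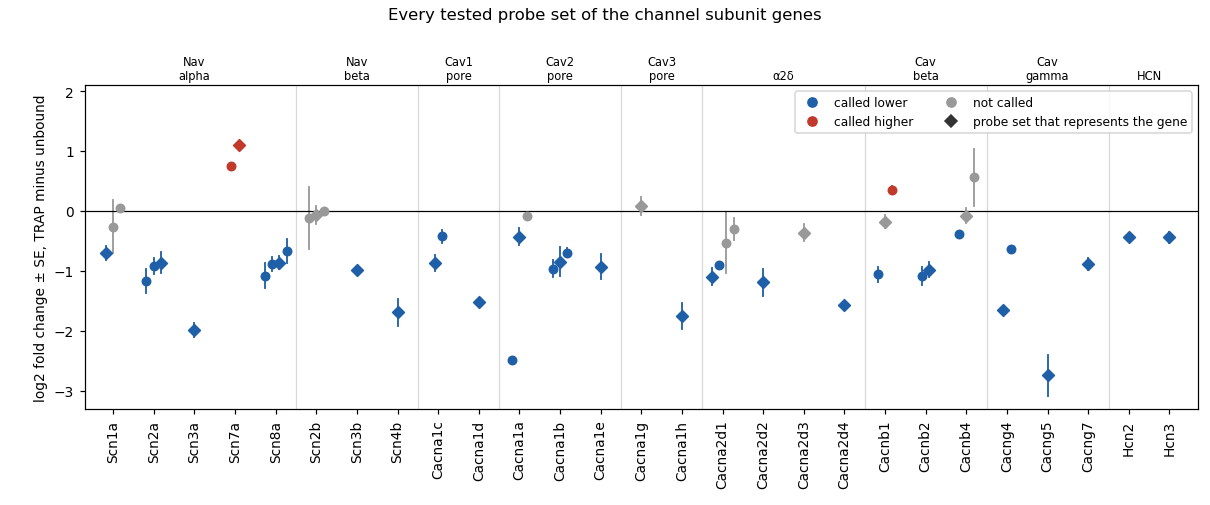
Log2 fold change ± SE, TRAP minus unbound, of the 51 tested probe sets by gene, coloured by call, with diamonds for the probe set that represents its gene. Most points lie below 0; Scn7a and 1 probe set of Cacnb1 are called higher, and Cacna1a runs from -2.49 to -0.09.

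Over probe sets rather than genes, 35 of the 51 tested members were called lower and 3 higher, where 47.7% of all 22591 probe sets tested were lower and 20.6% higher. Of the 13 genes with several tested probe sets, 7 had all of them called in 1 direction, 4 had some called in 1 direction and the rest not called, 1 had none called and 1, Cacnb1, had opposite calls. Scn2a and Scn8a had all 3 and all 4 of their tested probe sets lower, with decreases of 1.82-fold to 2.25-fold and of 1.59-fold to 2.11-fold. Scn1a had 1 lower and 2 not called (log2 0.05 and -0.26). Cacna2d1 had 2 lower and 2 not called (log2 -0.53 and -0.30), and the less bright of the lower ones had TRAP values of 40.7, below the minimum. In all, 6 of the 51 probe sets passed the minimum only through the group where they are high. Every one of them is among the calls, lower for Cacna1a, Cacna2d1, Cacna2d4, Cacng4 and Cacng5 and higher for Scn7a. The 7 genes with all probe sets called in 1 direction include Scn7a and Cacng4, whose second probe sets are among the 6.

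The 7 genes not tested were under 50 in both groups with every probe set. They were Scn9a, Scn10a and Scn11a, sodium channels of peripheral sensory neurons, the L-type pores Cacna1f of the retina and Cacna1s of skeletal muscle, and the gamma subunits Cacng1 and Cacng6. The highest of their group means was 47.0, for Cacng6 in unbound RNA, and the lowest gene maximum was 5.63, for Cacna1f. Of 5 skeletal muscle markers, 2 were tested and neither was called.

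Genes for proteins that anchor or regulate these channels were read against the 45.7% of all genes called lower. Of 11 genes of the axon initial segment and of sodium channel regulation, all tested, 10 were lower and 0 higher, with a median log2 fold change of -0.83; after centring on the tested genes 8 were lower. Tnr, which encodes the extracellular matrix protein tenascin-R, fell from 1681, 1681 and 1737 to 303, 334 and 322 (5.32-fold, limma adjusted p = 2.9e-06). Sptbn4, the spectrin of initial segments, was 2.62-fold lower and Ank2, an ankyrin, 2.56-fold lower (limma adjusted p = 1.8e-04 and 0.0033). Fgf12, an intracellular sodium channel modulator, was the exception at 9608, 8681 and 9184 against 9691, 9372 and 9104 (log2 -0.04, limma adjusted p = 0.54).

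Among regulators and presynaptic partners of calcium channels 6 of 8 tested genes were lower and 0 higher (median -0.51), and 4 after centring, with the calls of Rims1 and Rims2 lost. Stac2, an adaptor of L-type channels, was 2.75-fold lower at 173, 173 and 188 against 469, 547 and 454 (limma adjusted p = 9.0e-05). Rimbp2, which links release sites to calcium channels, was 1.68-fold lower and Cachd1, a relative of the alpha2delta subunits, 1.66-fold lower (limma adjusted p = 7.7e-04 and 3.9e-04). Of the sodium leak channel complex 2 of 3 tested genes were lower: Unc80 fell 2.88-fold and Fam155a 1.15-fold (limma adjusted p = 2.2e-04 and 0.018), and Fam155a was at 0.0060 after centring. Pex5l, the HCN trafficking partner, was not called (log2 -0.08, limma adjusted p = 0.85). These lists held 0 genes called higher.

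**Figure D4:**
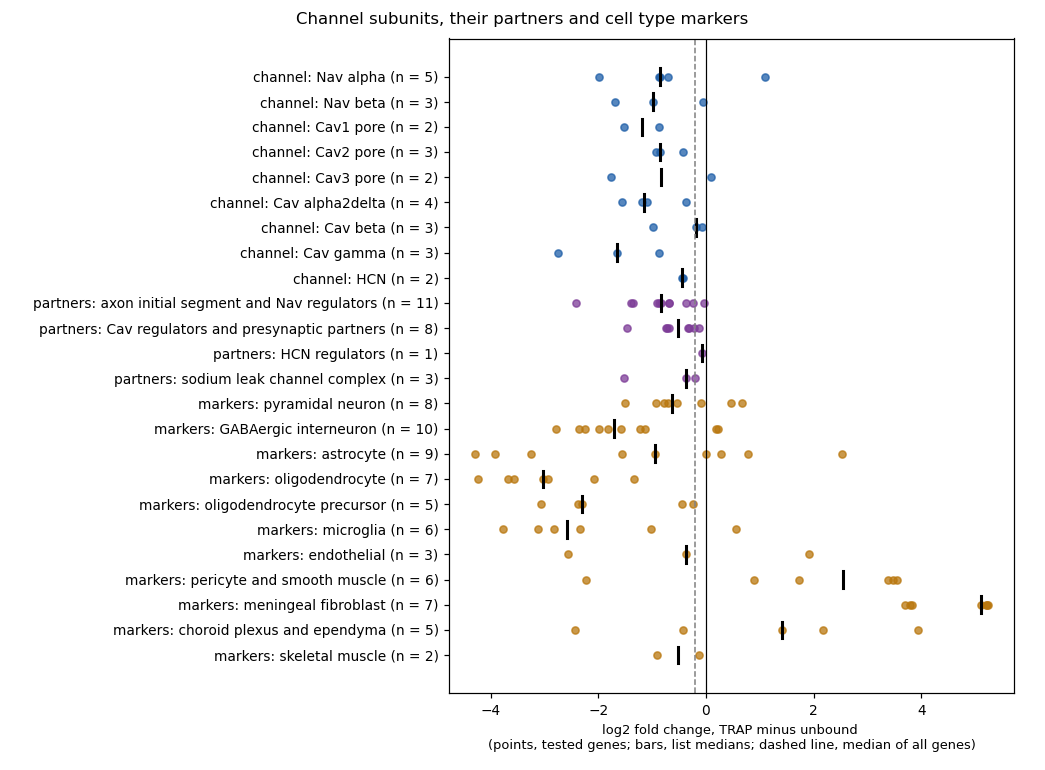
Log2 fold change, TRAP minus unbound, of tested genes (points) and list medians (bars) for the 9 channel subunit classes, their partner lists and 11 lists of cell type markers. The channel classes have medians from -1.66 to -0.18, between the oligodendrocyte markers at -3.03 and the meningeal markers at 5.11.

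Markers of several other cell types were lower on the TRAP arrays, as most channel genes were, and those of meninges and of pericytes and smooth muscle were mostly higher. Of 10 markers of GABAergic interneurons, which also express many of these channels, 8 were lower and 0 higher. Their summed intensity was 14838 to 18761 on the TRAP arrays against 36163 to 37450 on the unbound arrays. Summed intensities are weighted towards the brightest probe sets, here Gad1 with a mean of 9520 in TRAP RNA and 20811 in unbound RNA. Pvalb, the calcium buffer of fast-spiking cells, was 6.89-fold lower, while Npy and Sst were not called (log2 0.19 and 0.23). Markers of oligodendrocytes were lower in 7 of 7 and of their precursors in 4 of 5, with summed intensities of 8346 to 13715 against 51579 to 56994 and of 917 to 1262 against 5875 to 6816. Microglial markers were lower in 5 of 6 (summed intensities of 401 to 572 against 1201 to 1462), astrocyte markers higher in 3 and lower in 4 of 9, and endothelial markers higher in 1 and lower in 2 of 3. Markers of choroid plexus and ependyma were higher in 3 and lower in 1 of 5. The part of any of these cell types in the channel results was not tested.

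Pyramidal markers were mixed. Of 8 tested, Camk2a, Ptk2b, Tbr1 and Icam5 were lower, Nrgn and Neurod6 higher, and Slc17a7 and Neurod2 not called, with a median log2 fold change of -0.62 and summed intensities of 16963 to 17510 against 18648 to 20626. Potassium channel genes, taken as all 59 tested symbols that start with Kcn, were lower in 40 and higher in 8, with a median of -0.64. The sodium, calcium and HCN subunits were lower in 77.8% of tested genes and the Kcn genes in 67.8%, a difference that was not tested.

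Promoter sequence was available for 25 of the 34 genes, with 35 start sites between them. The median number of CpG dinucleotides in the 250 bases before the start was 9 for these 35 and 6 for all 32851 promoters in the table. A GC box (GGGCGG, searched on both strands) was found in 15 of the 35, or 42.9%, beside 32.7% of all promoters, and TATAAA in 2 of the 35 beside 12.4%. A full cyclic AMP response element (TGACGTCA) was in 0 of the 35 beside 1.55% of all promoters. The windows ranged from 1 CpG, before Scn2b and 1 start of Cacnb1, to 50, before 1 start of Cacna1d. Cacng5, with the largest decrease, had 2 and 12 before its 2 starts, and Scn7a, the gene called higher, had 3.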

How the data were processed

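The authors deposited linear intensities per probe set; the submitters' processing notes name GCRMA as the tool that made them. It corrects background, quantile-normalises arrays and summarises each probe set. Its version, and whether all 6 arrays were processed together, are not given in the sources used here. The deposited array medians differ between the groups, and the reason was not tested. Per the labels, 15 ng of RNA was amplified in a 2-cycle reaction, which favours sequence near the poly(A) tail. All 6 columns were used (0 unused).

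TRAP and unbound log2 intensities were compared by limma 3.58.1 under R 4.3.3, using lmFit and eBayes with no term but the group. Two-sided p-values were adjusted by Benjamini-Hochberg across 12070 genes. Probe sets with several symbols (932) or none (9211) represented no gene. Probe sets with no group mean of 50 or more, a limit from the series text, were dropped, and each gene was represented by its brightest kept probe set; the fit over all 22591 kept probe sets was adjusted over these. All 81 member probe sets matched RefSeq by Entrez ID, with 0 symbols changed. The fit was tested on simulated arrays with independent normal noise. These held no repeated values and no pairing of replicates, so that test does not cover either feature. No permutation test was run, since groups of 3 cannot give a p under 0.1.

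Same-numbered TRAP and unbound samples deviated together (correlations across genes 0.50, 0.46 and 0.37). A fit that pairs them by a replicate block was therefore run as an alternative. Unless the block is named, p-values, SEs and confidence intervals come from the unpaired fit. With the block some adjusted p-values were larger, as for Scn3a (0.0027), and others smaller, as for Cacna2d3 (0.0084). This pairing comes from the labels' numbers and these correlations. Other alternatives were 3 further scalings, 2 filters, raised low values, unmarked probe sets, probe sets without repeated values, a test against 2-fold and leaving out each array. All members were described, with their tested probe sets by value, range or call, and from each partner list the called genes with the largest folds; Fgf12, Pex5l and single markers were named after their values were seen. Members and lists were chosen with earlier results of these data known. Sequences and neighbours are from RefSeq tables of GRCm38.p6; no build is named for the array.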

Additional observations from a re-analysis of the deposited data

How the results depend on the processing

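The 21 members called lower stayed between 19 and 22 when single arrays were left out, where 4863 to 5201 of 12070 genes were lower. They numbered 21 with the replicate block (48.0% of all genes), which changed the calls of Cacna1a and Cacna2d3 only. On probe sets without repeated values, of which fewer could be tested, 13 members were lower (39.2% of all genes; 5 at least 2-fold, 12.6%), 0 were called higher and 0 were at least 2-fold higher. Against a 2-fold change 5 were lower and 0 higher, all 5 at least 2-fold. Members called higher numbered 3 after centring on all probe sets (47.3% of all genes). With no filter 4 members were higher and 25 lower, and the added genes lay under 50. Of all 18193 genes 4797 were higher and 8354 lower in that setting. The signs of small differences turned. Centring on all probe sets gave 0.37 for Scn2b, 0.0061 for Cacna1a, 0.0678 for Cacna2d3, 0.25 for Cacnb1 and 0.36 for Cacnb4, and centring on the tested genes gave 0.15, 0.0282 and 0.13 for Scn2b, Cacnb1 and Cacnb4. Quantile normalisation gave 0.0932 for Scn2b and 0.0316 for Cacnb1, and without repeated values Cacnb4, on another probe set, was at 0.56. Leaving out single arrays gave ranges of -0.19 to 0.04 for Scn2b, -0.0724 to 0.19 for Cacna1g and -0.14 to 0.0478 for Cacnb4. Either centring moves every gene alike by construction; the cause of the other turns was not tested. Signals near background limit Cacna2d4, Cacng5, Cacna1h and Scn7a.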

Other observations

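Some probe sets of the channel genes, noticed after their values were seen, were low in replicate 2 of both groups. That of Scn1a, which was not the representative one, gave 663, 370.4 and 718 in TRAP RNA and 778, 403 and 967 in unbound RNA. One of Scn2b gave 967, 487 and 1162 against 1028, 501 and 1372. One of Cacnb4 gave 2399.7, 1489 and 2098 against 1853, 671 and 1887. None of the 3 was called by limma in either fit (adjusted p = 0.62, 0.85 and 0.34, or 0.058, 0.14 and 0.13 with the replicate block). In the representative probe set of Scn1a, replicate 2 was the lowest unbound array but not the lowest TRAP array.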
